A study of Mus musculus with 14 samples.

Results

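The 50 genes described here encode the machinery that copies DNA, and the enzyme that supplies its building blocks. They are the origin recognition complex (6 genes), the licensing factors Cdc6, Cdt1 and Gmnn (3), the Mcm2-7 helicase (6), Mcm8 and Mcm9 (2), the factors that switch the helicase on (8), polymerase alpha with primase (4), polymerases delta and epsilon (8), the sliding clamp and its loader (6), the single-strand binding protein Rpa (3), the enzymes that join fragments of the lagging strand (2) and ribonucleotide reductase (2). The rule for membership uses gene symbols and no measured value, although the list was chosen with earlier results of these data known. It takes 50 of the 23697 rows of the deposited table. RNA was measured in early mouse embryos obtained either by fertilising oocytes in a dish (in vitro fertilisation, IVF) or by cloning (somatic cell nuclear transfer, SCNT), where an oocyte loses its own nucleus and receives one from a body cell, and in the cumulus cells that supply such nuclei. Values are FPKM, mapped fragments per kilobase of transcript, scaled to the library's mapped total, so levels can be compared between genes per length.

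There were 7 groups of 2 libraries. Donor cumulus libraries came from about 1000 cells each, taken from superovulated females and labelled as the F1 of C57BL/6J and CAST/EiJ, although the growth protocol names BDF1 females. IVF embryos had C57BL/6J oocytes and CAST/EiJ sperm, and were pooled as 32 and 31 embryos at the 1-cell stage and as 25 and 25 at the 2-cell stage. SCNT embryos carried the (C57BL/6J x CAST/EiJ) F1 donor nucleus in a B6D2F1 oocyte, and were pooled as 36 and 36 at the 1-cell stage and 40 and 40 at the 2-cell stage. The same kind of SCNT embryo overexpressing Kdm4d, an enzyme that removes methyl groups from lysine 9 of histone H3, or a mutant Kdm4d, was collected at the 2-cell stage in pools of 25. IVF and SCNT embryos thus differed in the strain of the oocyte as well as in how they were made, and these cannot be told apart. The sources used here name neither the mutation nor the way of overexpression nor the hour of collection.

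A cell licenses its origins of replication before it copies its DNA: the origin recognition complex, Cdc6 and Cdt1 load the Mcm2-7 ring onto DNA, and geminin, the product of Gmnn, binds Cdt1 and blocks a second loading. The group called licensing factors here thus holds Cdc6 and Cdt1, which load the ring, and Gmnn, which encodes an inhibitor. The kinase Cdc7 with its partner Dbf4, then Cdc45 and the GINS complex, turn the loaded ring into a moving helicase, after which polymerase alpha with primase starts each strand and polymerases delta and epsilon extend it. Oocytes store the messenger RNAs for much of this machinery, and mouse embryos clear many stored messages while their own genome becomes active at the 2-cell stage.

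In somatic cells many replication genes are switched on by E2F factors through a short promoter core. Promoters of some genes on which the comparisons turn are shown for that reason, picked among those with a core before the start of transcription. RefSeq promoter windows (build GRCm38.p6, 250 bases before to 50 after the start of transcription) were matched for 42 of the 50 genes, as 52 windows. Gins1, Gins2, Gins4, Gmnn, Mcm4, Pole, Prim2 and Rfc2 had no entry. Each sequence runs 5′ to 3′ on the gene's strand, and capitals mark E2F cores, found on either strand as the motif TTCCCGC, the motif TTCGCGC, the motif TTGCCGC or the motif TTGGCGC. Where cores overlap they appear as a single run of capitals. The first 4 genes (Cdc6 at chr11:98907983-98908049, plus strand; Orc1 at chr4:108579397-108579453, plus; Rpa2 at chr4:132768293-132768359, plus; Rrm2 at chr12:24708004-24708055, plus) were lower in SCNT than in IVF 2-cell embryos, and higher with Kdm4d than with its mutant (for Rpa2 both calls were lost under quantile normalization).
Cdc6: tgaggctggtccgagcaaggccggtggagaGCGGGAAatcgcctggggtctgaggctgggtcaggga
Orc1: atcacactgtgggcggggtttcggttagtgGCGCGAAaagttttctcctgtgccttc
Rpa2: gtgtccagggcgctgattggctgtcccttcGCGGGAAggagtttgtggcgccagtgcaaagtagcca
Rrm2: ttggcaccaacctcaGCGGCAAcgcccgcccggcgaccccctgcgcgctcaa
Pola1 (chrX:93632245-93632354, minus strand) moved the other way in both comparisons, and Mcm6 (chr1:128359735-128359844, minus strand) passed the test in neither. For Pola1 the call for Kdm4d against its mutant was lost without Kdm4d 2-cell replicate 1 or mutant Kdm4d 2-cell replicate 1.
Pola1: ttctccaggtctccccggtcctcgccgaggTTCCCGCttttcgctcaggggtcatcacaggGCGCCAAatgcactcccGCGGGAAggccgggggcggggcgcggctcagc
Mcm6: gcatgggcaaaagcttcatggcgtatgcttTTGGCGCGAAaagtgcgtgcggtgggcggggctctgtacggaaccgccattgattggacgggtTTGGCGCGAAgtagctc
Not every gene with the pattern of the first 4 had such a core. The windows of Cdc45 and Pcna held none, and that of Cdt1 held cores only after the start of transcription. E2F cores stood in 32 of the 52 windows (61.5%), against 3145 of 32851 windows of all genes (9.57%). A CCAAT box (CCAAT on either strand) stood in 53.8% of the members' windows and in 37.4% of all. The cell cycle element TTTGAAA stood in 5.77% and 6.5%. A match of letters describes the sequence and shows no binding.

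All 50 genes reached the minimum for testing, 1 FPKM in at least 2 libraries, which 13452 genes passed in all. Tests used limma on log2(FPKM + 1) with Benjamini-Hochberg adjustment over those genes. Differences below are on that scale, which understates the change of genes near 0, and a gene is said to have risen, fallen or been called when its adjusted p was at most 0.05. The labels do not say that replicates were separate experiments, so p-values measure only the spread between these libraries, and in pooled embryos fewer cells with a message cannot be told from less of it per cell. Sums of FPKM ran from 182653 to 345126 and were lowest in the SCNT 2-cell libraries. Relative depth, read from the steps between low values, ran from 0.415 to 1, with the Kdm4d and mutant libraries between 0.415 and 0.507 and the IVF and SCNT libraries at 0.779 or above. The median gap between the 2 libraries of a group over the members ran from 0.08 (SCNT 1-cell) to 0.268 (Kdm4d). Of 15 oocyte markers, 14 or 15 averaged at least 1 FPKM in each embryo group and 0 in donor cells, where all 20 cumulus markers did. Cumulus markers summed to between 20874 and 27094 FPKM in donor libraries and at most 222 in any embryo library. At the 1-cell stage that sum was at most 10.0 in IVF embryos and between 67.9 and 88.3 in SCNT embryos.

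**Figure D1:**
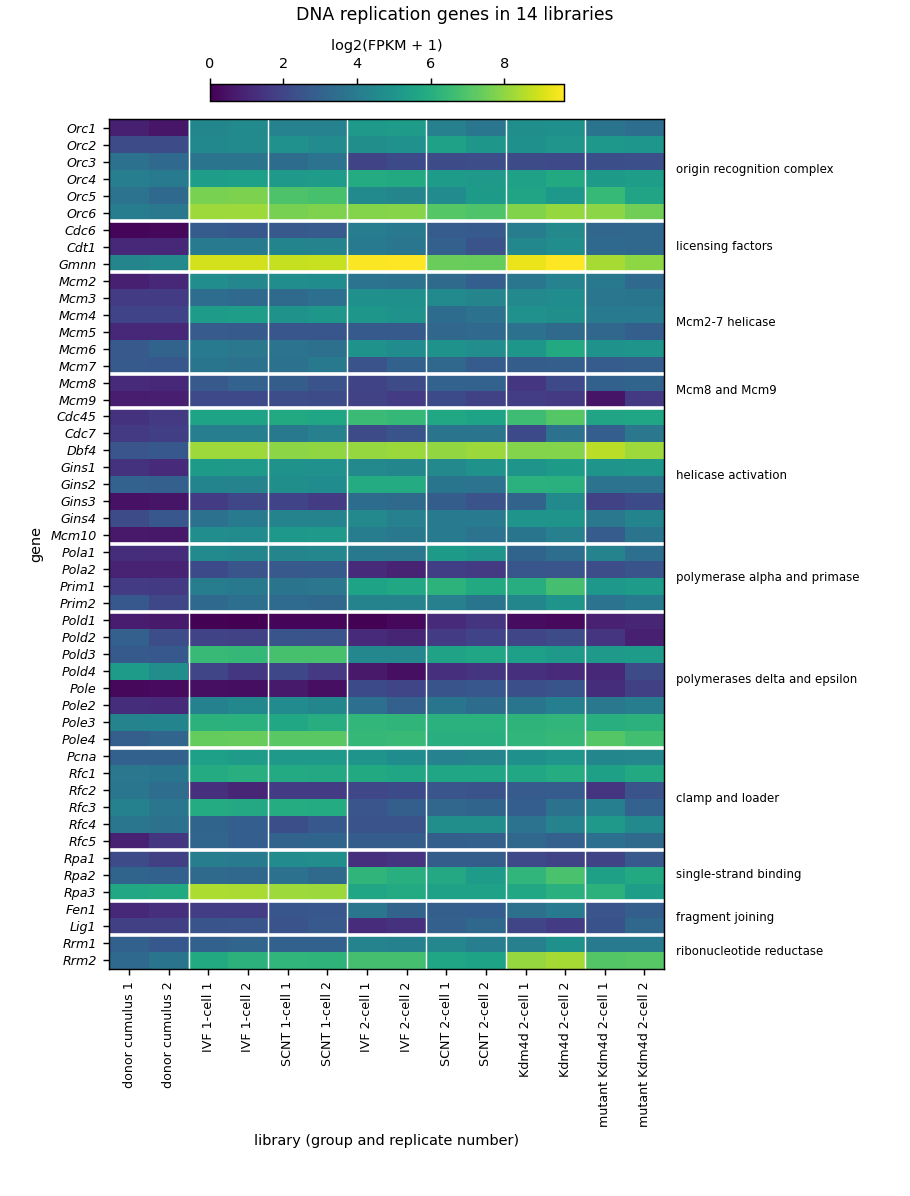
Level of each of the 50 replication genes (rows, grouped by role) in each of the 14 libraries (columns, 2 per group), as colour on a log2(FPKM + 1) scale. The 2 donor columns are the darkest for 40 of the 50 genes by group mean, and the brightest rows in embryos are Gmnn, Orc6, Dbf4 and, at the 1-cell stage, Rpa3.

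Messages for this machinery made up a far larger share of summed FPKM in embryos than in the cumulus cells. The 50 genes together made up 0.132 and 0.133% of summed FPKM in the donor libraries, 0.745 to 0.781% in the 1-cell libraries and 0.744 to 1.03% in the 2-cell libraries. Donor cells had the lowest mean of the 7 groups for 40 genes, and against IVF 1-cell embryos 40 genes were lower and 5 higher, where 35.5% of all tested genes were lower and 42.4% higher. The members' median difference was -1.85, and that of all tested genes 0.127. Dbf4, the activating partner of the Cdc7 kinase, had 4.79 and 5.26 FPKM in donor cells and 292 and 297 FPKM in IVF 1-cell embryos (-5.62 ± 0.15 (SE), adjusted p = 2.35e-11). Gmnn had 19.7 and 21.8 FPKM against 492 and 493 FPKM (-4.51 ± 0.17 (SE), adjusted p = 1.82e-10). Orc6, the smallest subunit of the origin recognition complex, had 15.7 and 13.4 FPKM against 297 and 296 FPKM (-4.26 ± 0.17 (SE), adjusted p = 3.12e-10). In each of these the donor and embryo values lay far apart. Cdc6, which origins need to become licensed, was nearly undetected in donor cells, at 0.0936 and 0.16 FPKM, against 5.98 and 5.29 FPKM in IVF 1-cell embryos.

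The genes that were higher in donor cells were subunits of the polymerases and of the clamp loader. Pold4, the smallest subunit of polymerase delta, had 37.5 and 25.7 FPKM in donor cells and 2.98 and 1.92 FPKM in IVF 1-cell embryos (3.23 ± 0.33 (SE), adjusted p = 1.72e-06). Rfc2, a subunit of the clamp loader, had 12.6 and 9.79 FPKM against 1.5 and 1.07 FPKM (2.41 ± 0.27 (SE), adjusted p = 3.31e-06). For both genes the donor libraries were the highest of all 14. Of the 50-base stretches of Pold4 transcripts, 21.7% also lie in same-strand transcripts of AC109138.7 (GENCODE M21). Pold2 and Rfc4 differed less (0.68 and 0.67), and neither stayed past the threshold without donor cumulus replicate 1 (adjusted p = 0.299 and 0.107); Rfc4 also lost its call without IVF 1-cell replicate 2 (0.109), and Pold2 without either IVF 1-cell library (0.0693 and 0.109). Rfc1, Rfc5 and Pole3, subunits of the clamp loader and of polymerase epsilon, were lower in donor cells and were called in none of the comparisons among embryos.

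At the 1-cell stage no replication gene was called between SCNT and IVF embryos. Of the 50, 0 passed the test with limma, against 1.34% of all genes higher and 0.974% lower in SCNT, and the members' smallest adjusted p was 0.101. At an unadjusted p under 0.05, 6 members were higher and 3 lower, where 9.4% of all genes were higher and 5.83% lower. The count depended on how the spread was estimated: with group weights 10 members were higher and 8 lower, and in a fit of these 4 libraries alone 9 were higher and 11 lower. The shares of all tested genes under these settings are not given here, so the counts cannot be read as particular to the members. Gmnn had 437 and 441 FPKM in SCNT and 492 and 493 FPKM in IVF 1-cell embryos (-0.17 ± 0.17 (SE), adjusted p = 0.723). Cdt1, the loading factor that geminin binds, had 19.4 and 18.9 FPKM against 14.3 and 14.5 FPKM (0.39 ± 0.17 (SE), adjusted p = 0.308). Mcm4, a subunit of the helicase ring, had 29.4 and 33.3 FPKM against 38.5 and 39.6 FPKM (-0.31 ± 0.14 (SE), adjusted p = 0.293). The libraries of the 2 groups did not overlap for these genes, but their gaps were small beside those of the same genes at the 2-cell stage. Gaps were wider for Orc5, with 121 and 112 FPKM in SCNT against 206 and 209 FPKM in IVF 1-cell embryos. The same held for Fen1, with 4.88 and 5.09 FPKM against 2.39 and 2.31 FPKM.

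From the 1-cell to the 2-cell stage of IVF embryos replication genes changed in both directions, in shares near those of all tested genes. Of the 50 genes 18 rose and 20 fell, against 30.4% and 37.2% of all tested genes, with a members' median of -0.21 (all genes -0.058). With all libraries scaled to equal sums of FPKM the split was 22 and 12. Within complexes the subunits went different ways, most of all in Rpa, the trimer that coats single-stranded DNA. Rpa2 rose from 9.03 and 8.38 FPKM to 77.4 and 64.1 FPKM (2.88 ± 0.22 (SE), adjusted p = 2.4e-07). Rpa1 fell from 16 and 14.9 FPKM to 1.45 and 1.75 FPKM (-2.67 ± 0.23 (SE), adjusted p = 6.78e-07). Rpa3 fell from 344 and 333 FPKM to 50.5 and 58.2 FPKM (-2.62 ± 0.21 (SE), adjusted p = 4.69e-07). Of its 50-base stretches 16.6% also lie in other same-strand transcripts, among them those of Gm6195. At the 2-cell stage Rpa1, which holds the main DNA-binding domains, was thus the scarcest of the trimer.

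The origin recognition complex and the clamp loader showed the same kind of split. Orc5 fell from 206 and 209 FPKM to 22.8 and 19.9 FPKM (-3.23 ± 0.27 (SE), adjusted p = 6.23e-07), and Orc3 fell too (-1.63 ± 0.17), while Orc1, a subunit that binds ATP, rose from 20.2 and 23.4 FPKM to 34.7 and 38.5 FPKM (0.72 ± 0.17 (SE), adjusted p = 0.00235). In the clamp loader Rfc3 fell from 59.5 and 54.5 FPKM to 4.76 and 6.6 FPKM (-3.13 ± 0.33 (SE), adjusted p = 3.64e-06). Rfc1, its largest subunit, had 59.8 and 64.3 FPKM and 55.7 and 48.8 FPKM and was not called (-0.25 ± 0.15). Of the 8 subunits of polymerases delta and epsilon 1 rose, Pole (1.72 ± 0.20), and 5 fell, led by Pold3 with 89.1 and 83.9 FPKM before and 20.6 and 20.9 FPKM after (-2.01 ± 0.13 (SE), adjusted p = 7.97e-08).

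The genes that rose in IVF embryos included Prim1 and Prim2 of primase, Cdc6 and Gmnn of the 3 licensing factors, and both subunits of ribonucleotide reductase. Prim1, the catalytic subunit of primase, rose from 15.7 and 13.7 FPKM to 46.9 and 53.6 FPKM (1.71 ± 0.23 (SE), adjusted p = 2.81e-05). Gins2, a subunit of the GINS complex, rose from 19.2 and 18.8 FPKM to 59.9 and 58.6 FPKM (1.59 ± 0.12 (SE), adjusted p = 3.22e-07). Fen1, the nuclease that trims flaps on the lagging strand, had 2.39 and 2.31 FPKM and then 12.8 and 7.26 FPKM (1.67 ± 0.24 (SE), adjusted p = 5.47e-05). Values of Gins2 and Fen1 are uncertain because strand is not given for these libraries: 70.3% of the 50-base stretches of Gins2 transcripts also lie in opposite-strand transcripts of Gse1, and 76.7% of those of Fen1 in Gm10143 or Tmem258 (GENCODE M21). In the table Gse1 had 0.6 to 5.95 FPKM in the 14 libraries. Cdc6, Cdc45, Rrm1 and Rrm2 rose as well (1.25, 0.91, 1.20 and 0.75), and Gmnn rose from its already high level to 752 and 781 FPKM (0.64 ± 0.17 (SE), adjusted p = 0.0044). Cdc7, the catalytic subunit of the kinase that activates the helicase, fell from 16.3 and 16.2 FPKM to 3.56 and 4.71 FPKM (-1.76 ± 0.39 (SE), adjusted p = 0.0016), while its partner Dbf4 had 292 and 297 FPKM before and 272 and 284 FPKM after and was not called (-0.08 ± 0.15).

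In SCNT embryos Prim1, Rpa2 and Rrm1 rose as in IVF embryos, while none of the 3 licensing factors rose and Gmnn and Cdt1 fell. Of the 50 genes 13 rose and 20 fell, against 35.5% and 31.5% of all tested genes, with a members' median of -0.20 (all genes 0.062). Under equal sums of FPKM the split was 25 and 10, so the balance of rises and falls depended on that choice. Of the 18 genes that rose in IVF, 8 also rose in SCNT (44.4% of the IVF list and 61.5% of the SCNT list). Of the 20 that fell in each, 14 were shared (70.0% of either list). For all tested genes the shared shares were 75.7% and 64.8% for rises, and 73.1% and 86.2% for falls. Prim1 rose from 11.9 and 13.2 FPKM to 73.2 and 55.6 FPKM (2.26 ± 0.23 (SE), adjusted p = 3.82e-06), Rpa2 from 11 and 8.88 FPKM to 54.2 and 38.6 FPKM (2.10 ± 0.22 (SE), adjusted p = 5.08e-06), and Mcm3 and Mcm6 of the helicase ring by 1.06 and 1.23. Rrm1, the large subunit of ribonucleotide reductase, rose from 6.9 and 6.87 FPKM to 21 and 16.4 FPKM (1.31 ± 0.21 (SE), adjusted p = 0.000163). Rfc3, Rpa3, Orc5 and Rpa1 fell (-2.80, -2.69, -1.95 and -1.84), as they had in IVF embryos.

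A test of the difference between the 2 stage changes called 18 members, 8 with a more positive change in SCNT and 10 with a more negative one, against 16.5% and 12.6% of all tested genes. Under equal sums of FPKM the counts were 11 and 9. Without IVF 1-cell replicate 2, SCNT 1-cell replicate 2, IVF 2-cell replicate 1 or SCNT 2-cell replicate 2, 5 members in place of 8 had the more positive change. All 3 licensing factors were among the 10. Gmnn rose in IVF but fell in SCNT embryos, from 437 and 441 FPKM to 171 and 164 FPKM, and its changes differed by -2.02 ± 0.23 (SE), adjusted p = 0.00016. Its fall in SCNT lost its call under quantile normalization. Gins2 rose in IVF and fell in SCNT, from 27 and 24.3 FPKM to 12.4 and 11.5 FPKM, a difference between changes of -2.63 ± 0.17 (SE), adjusted p = 6.44e-06; under equal sums of FPKM the fall in SCNT was not called. Cdt1 had nearly the same level at both IVF stages and fell in SCNT from 19.4 and 18.9 FPKM to 6.67 and 4.44 FPKM (-1.54 ± 0.24 (SE), adjusted p = 0.000949 for the difference).

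Rrm2, the subunit of ribonucleotide reductase whose amount limits the enzyme in dividing cells, rose in IVF embryos to 108 and 108 FPKM. In SCNT embryos it went from 79.3 and 75.1 FPKM to 49.2 and 46.7 FPKM, a change of -0.67 ± 0.17 that was called here but was 0.10 under equal sums of FPKM. The difference between its changes was -1.43 ± 0.24 (SE), adjusted p = 0.00119. Mcm4, Cdc6, Cdc45, Orc1 and Fen1 also had the more negative change in SCNT (-1.22, -1.21, -1.03, -1.02 and -1.35). In the other direction stood Rfc4, with 3.95 and 5.29 FPKM in SCNT 1-cell and 26.1 and 25.8 FPKM in SCNT 2-cell embryos, where IVF embryos had 7.5 and 6.41 FPKM and then 4.55 and 4.56 FPKM (2.79 ± 0.33 (SE), adjusted p = 0.000183). Lig1, the ligase that seals lagging-strand fragments, fell in IVF embryos from 4.59 and 4.85 FPKM to 1.32 and 1.62 FPKM and had 4.44 and 5.36 FPKM and then 6.77 and 8.46 FPKM in SCNT embryos (1.76 ± 0.35 (SE), adjusted p = 0.00321). Pola1, the catalytic subunit of polymerase alpha, was called lower at the 2-cell stage in IVF (-0.65) and higher in SCNT (0.70). Its fall in IVF was lost under both scalings and when any of the 4 libraries was left out. Its rise in SCNT was lost when any of 3 of the 4 libraries was left out. The difference between changes was 1.36 ± 0.33 (SE), adjusted p = 0.00951.

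**Figure D2:**
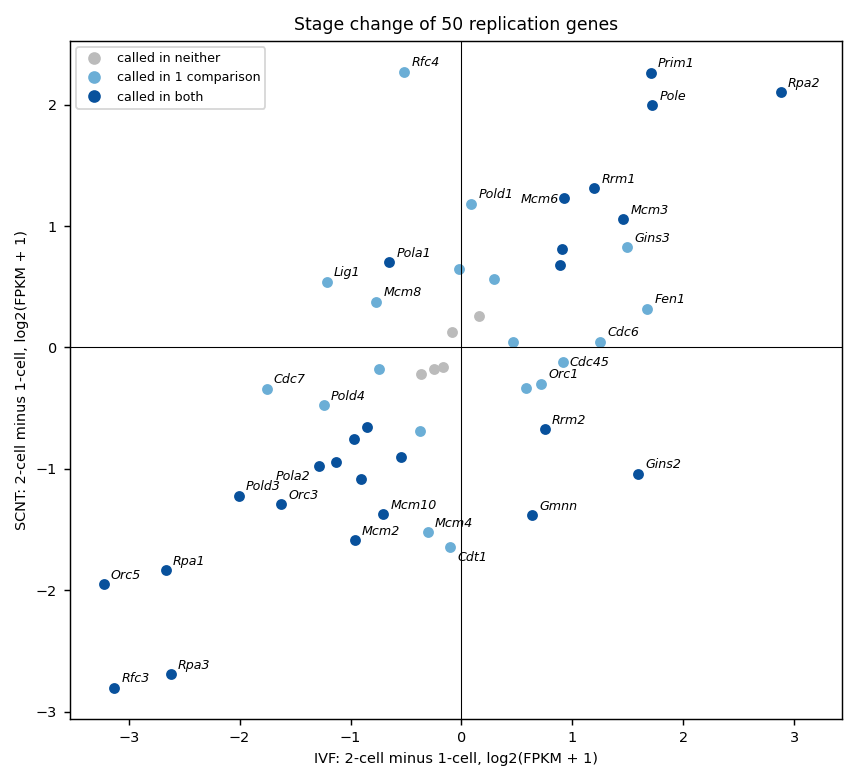
Difference between the 2-cell and the 1-cell stage on the log2(FPKM + 1) scale in IVF embryos (x) and in SCNT embryos (y), 1 point per gene, coloured by the number of these 2 comparisons in which it was called. Most points follow the diagonal, while Gmnn, Gins2, Rrm2, Cdt1 and Mcm4 lie below it and Rfc4, Lig1 and Pola1 above; the SCNT change of Rrm2 turns to 0.10 under equal sums of FPKM.

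At the 2-cell stage the loading factors Cdc6 and Cdt1 were lower in SCNT than in IVF embryos. So were Gmnn, which encodes the inhibitor of loading, and Gins2, Mcm4, Orc1 and Rrm2. Of the 12 subunits of polymerases alpha, delta and epsilon, primase included, 5 were higher (Pola1, Pola2, Pold1, Pold2 and Pold3) and 0 lower. Pola2, Pold1 and Pold2 averaged at most 2.53 FPKM in either group. The Mcm2-7 ring had 1 gene lower and 1 higher, and the clamp and its loader 1 lower (Pcna) and 1 higher (Rfc4). Of the 50 genes 12 were lower and 12 higher, where 16.6% of all tested genes were lower and 30.3% higher, and the members' median of 0.04 compared with 0.225 for all genes. Under equal sums of FPKM 9 were lower and 22 higher. Of the 12 lower genes 8 kept their call under quantile normalization and under equal sums of FPKM: Gins2, Gmnn, Mcm4, Orc1, Cdc6, Rrm2, Cdt1 and Cdc45. Orc6, Orc4, Pcna and Rpa2 lost theirs under at least 1 of these. Of the 12 higher genes 9 kept their call under both, while Mcm5, Pola2 and Pold2 lost theirs under quantile normalization.

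The licensing factors were lower in SCNT without exception among the 3. Gmnn (chr13:24843714-24853806, build mm9) had 752 and 781 FPKM in IVF and 171 and 164 FPKM in SCNT 2-cell embryos (-2.18 ± 0.17 (SE), adjusted p = 2.21e-06). Cdt1 (chr8:125091915-125097030) had 14 and 12.7 FPKM against 6.67 and 4.44 FPKM (-1.15 ± 0.17 (SE), adjusted p = 0.000252). Cdc6 (chr11:98769203-98785256) had 16 and 13.7 FPKM against 6.01 and 5.57 FPKM (-1.22 ± 0.18 (SE), adjusted p = 0.000201). For each of them both SCNT libraries lay under both IVF libraries with a wide gap, and Gmnn, the most abundant of the 50 genes in IVF 2-cell embryos, showed the widest. Within the origin recognition complex Orc1 (chr4:108252059-108287436) had 34.7 and 38.5 FPKM against 17.1 and 12.6 FPKM (-1.26 ± 0.17 (SE), adjusted p = 0.000122). Orc2 of the same complex had 26.2 and 28.4 FPKM in IVF and 44.4 and 33.1 FPKM in SCNT embryos (0.48 ± 0.16 (SE), adjusted p = 0.03), a call lost when any of 3 of the 4 libraries was left out.

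Of the factors that build the moving helicase, Gins2 (chr8:123105166-123112975) had 59.9 and 58.6 FPKM in IVF and 12.4 and 11.5 FPKM in SCNT embryos (-2.22 ± 0.12 (SE), adjusted p = 3.55e-07). The other GINS subunits were not called: Gins1 differed by 0.24 ± 0.17, Gins3 by -0.73 ± 0.36 and Gins4 by -0.39 ± 0.20. Cdc45 (chr16:18780540-18812065), which joins GINS on the ring, had 92.1 and 84 FPKM against 51.9 and 46.7 FPKM (-0.82 ± 0.16 (SE), adjusted p = 0.00157). Rrm2 (chr12:25393119-25399011) had 108 and 108 FPKM against 49.2 and 46.7 FPKM (-1.16 ± 0.17 (SE), adjusted p = 0.000196), whereas Rrm1, the large subunit of the same enzyme, had 18.6 and 17.6 FPKM against 21 and 16.4 FPKM with overlapping libraries (0.03 ± 0.21 (SE), adjusted p = 0.914). Both Cdc45 and Rrm2 were lower in each SCNT library than in each IVF library.

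**Figure D3:**
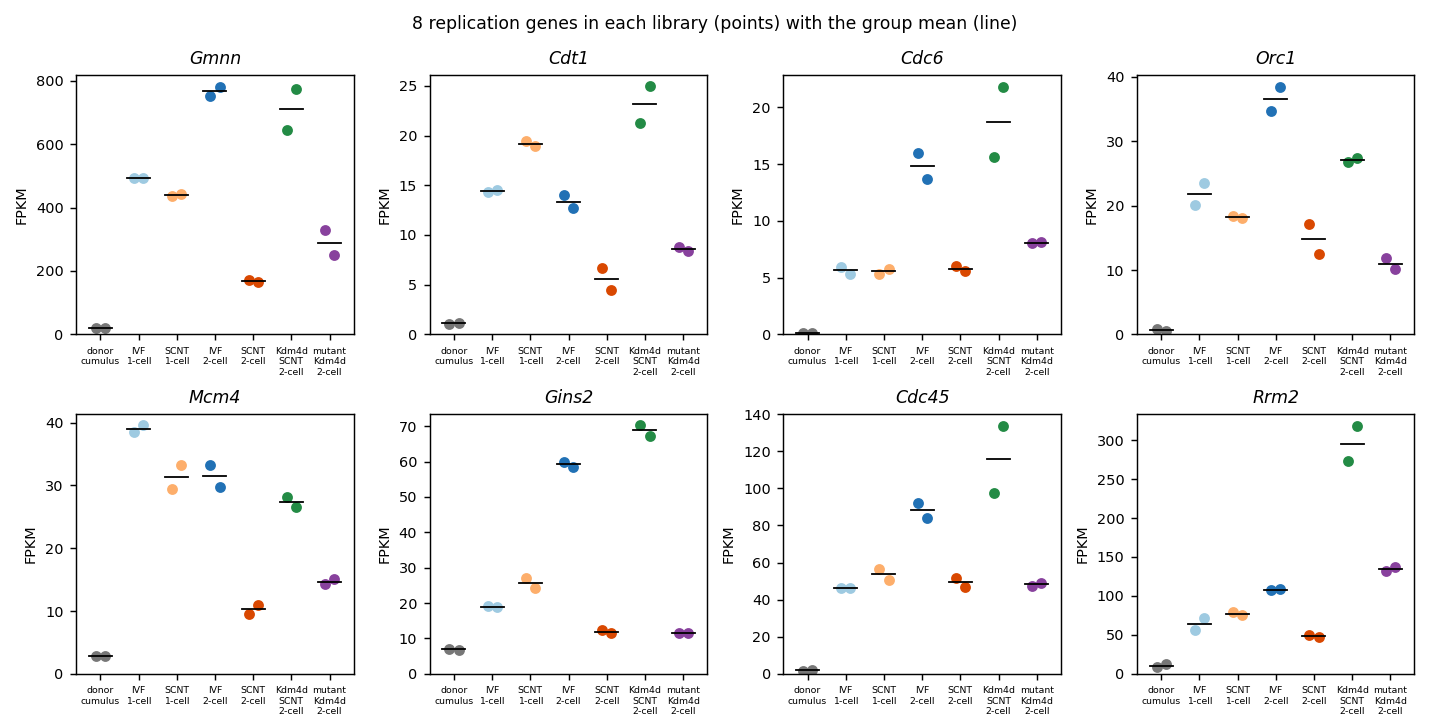
FPKM of 8 replication genes (1 panel each, linear axis from 0) in the 7 groups, with a point for each of the 2 libraries and a line at the group mean. The 8 genes are those that kept a lower call in SCNT than in IVF 2-cell embryos under both scalings. All 8 were also called higher with Kdm4d than with its mutant. The choice of genes thus fixed that in every panel the SCNT 2-cell points lie under the IVF 2-cell points. It also fixed that the Kdm4d 2-cell points lie over the mutant Kdm4d points. Of all 50 members 12 were higher in SCNT than in IVF 2-cell embryos.

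The genes that were higher in SCNT 2-cell embryos were led by Rfc4 (chr16:23114021-23127803), a clamp loader subunit, at 4.55 and 4.56 FPKM in IVF and 26.1 and 25.8 FPKM in SCNT (2.28 ± 0.23 (SE), adjusted p = 1.99e-05). Its gene overlaps Eif4a2 on the opposite strand by 185 bases, and Eif4a2 had 55.5 and 51.0 FPKM in IVF and 65.2 and 51.0 FPKM in SCNT 2-cell embryos. Lig1 (chr7:13862662-13896776) had 1.32 and 1.62 FPKM against 6.77 and 8.46 FPKM (1.80 ± 0.24 (SE), adjusted p = 0.00013). Its gene overlaps the row 6330408A02Rik by 1409 bases. That row had 0.116 and 0.136 FPKM in IVF and 1.14 and 1.33 FPKM in SCNT 2-cell embryos, and the part of the overlap in the Lig1 values was not tested. Pola1 (chrX:90550105-90877494) had 13.6 and 13.3 FPKM against 36.9 and 30.2 FPKM (1.25 ± 0.23 (SE), adjusted p = 0.00104). In all of these the SCNT values lay well over the IVF values. Rpa1 had 1.45 and 1.75 FPKM in IVF and 6.06 and 6.22 FPKM in SCNT embryos (1.46 ± 0.23 (SE), adjusted p = 0.000325). Pold3 showed the same pattern, with 20.6 and 20.9 FPKM against 45.7 and 49.7 FPKM (1.16 ± 0.13 (SE), adjusted p = 3.76e-05). Rpa1 and Pold3 had fallen from the 1-cell stage in both kinds of embryo. Cdc7 had 3.56 and 4.71 FPKM against 11.9 and 11.9 FPKM (1.34 ± 0.39 (SE), adjusted p = 0.0148), a call that was lost without IVF 2-cell replicate 1 (adjusted p = 0.0931), SCNT 2-cell replicate 1 (0.0631) or SCNT 2-cell replicate 2 (0.0622). Without SCNT 2-cell replicate 1, 7 members were higher in place of 12.

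Other measures moved with these groups. Markers of the 2-cell stage (10 genes, of which 2 were at 0 throughout both groups) summed to between 1814 and 1844 FPKM in IVF and between 487 and 555 FPKM in SCNT 2-cell embryos. Of 6 markers of proliferating cells all averaged at least 1 FPKM in both, and their sum was 618 to 624 FPKM in IVF and 363 to 379 FPKM in SCNT. Among them Top2a and Aurkb overlapped between the groups. Oocyte markers summed to between 2014 and 2068 FPKM in IVF and between 1216 and 1412 FPKM in SCNT, but single oocyte markers went both ways. Btg4 was lower in SCNT (349 and 428 FPKM against 865 and 920 FPKM) and Bmp15 higher (243 and 279 FPKM against 105 and 110 FPKM). Cumulus markers, 20 genes of which 1 was at 0 in both IVF libraries, summed to between 123 and 130 FPKM in IVF and between 80.5 and 88.0 FPKM in SCNT. Gja1 was the largest part of that sum, at 63.9 and 53.9 FPKM in IVF and 35.9 and 34.2 FPKM in SCNT. Single cumulus markers went both ways too. Nr5a2 was lower in SCNT (12.6 and 10.7 FPKM against 32.4 and 26.5 FPKM) and Star higher (1.37 and 1.42 FPKM against 0.46 and 0.573 FPKM). The sum therefore cannot show how much donor cell message was present. The part of these marker sums in the members' differences was not tested.

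The 6 subunits of the Mcm2-7 ring, which assemble in equal numbers, had unequal messages that changed order between groups. In IVF 1-cell embryos Mcm4 was the highest, at 38.5 and 39.6 FPKM, and Mcm5 the lowest, at 5.84 and 5.58 FPKM. Mcm2 fell from 25.4 and 21 FPKM at the IVF 1-cell stage to 11.7 and 11 FPKM at the 2-cell stage (-0.96 ± 0.24 (SE), adjusted p = 0.0031), a call lost under equal sums of FPKM, while Mcm3 rose from 9.82 and 8.86 FPKM to 27.1 and 27.6 FPKM (1.46 ± 0.14 (SE), adjusted p = 1.81e-06). Mcm6 rose as well, from 14.1 and 13.2 FPKM to 28.9 and 24.8 FPKM (0.93 ± 0.22 (SE), adjusted p = 0.00247). In SCNT 2-cell embryos 1 subunit stood out: Mcm4 (chr16:15623990-15637493) had 9.59 and 10.9 FPKM against 33.3 and 29.7 FPKM in IVF (-1.53 ± 0.14 (SE), adjusted p = 6.74e-06). The other 5 subunits differed less from IVF. Mcm6 had 29.8 and 25.5 FPKM (0.04 ± 0.22 from IVF, not called), Mcm3 had 22.9 and 19.9 FPKM (-0.35 ± 0.14, not called), and Mcm2 had 8.91 and 6.35 FPKM (-0.54 ± 0.24, not called). Mcm7 had 8.14 and 5.97 FPKM, with overlap between the groups (0.28 ± 0.20, not called). Mcm5 had 7.95 and 8.63 FPKM against 5.67 and 5.51 FPKM (0.49 ± 0.16 (SE), adjusted p = 0.0257), a call that did not survive the loss of any 1 of the 4 libraries (adjusted p from 0.058 without SCNT 2-cell replicate 1 to 0.115 without SCNT 2-cell replicate 2). The stage change of Mcm4 differed between SCNT and IVF by -1.22 ± 0.19 (SE), adjusted p = 0.000903. For Mcm7 19.9% of 50-base stretches are shared with Gm5487 on the same strand.

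**Figure D4:**
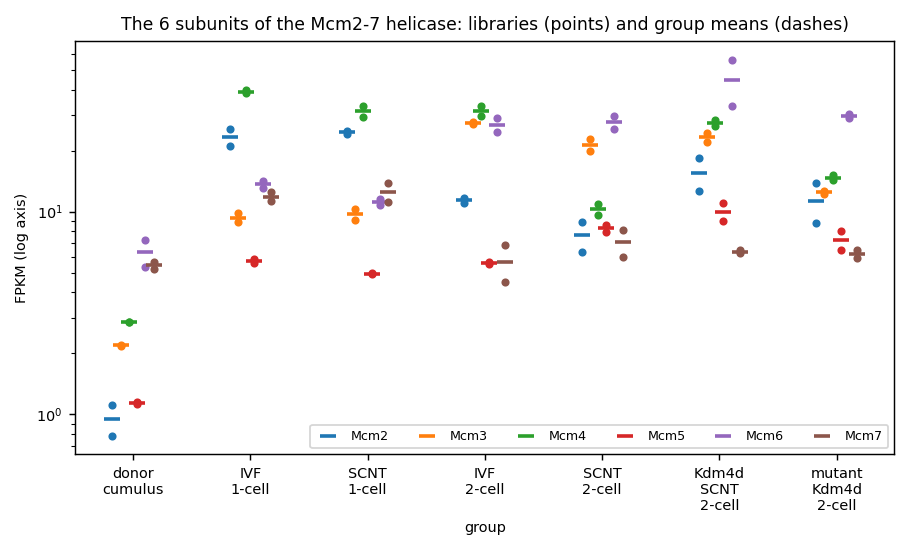
FPKM of the 6 subunits of the Mcm2-7 helicase (colours) in the 7 groups on a log axis, with points for the 2 libraries and dashes for the group means. Mcm4 drops from near the top in IVF 2-cell embryos to near 10 FPKM in SCNT 2-cell embryos, and Mcm6 is the highest of the 6 in SCNT, Kdm4d and mutant Kdm4d 2-cell embryos.

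Kdm4d itself was listed at 8879 and 2255 FPKM in the libraries labelled as overexpressing it, at 723 and 283 FPKM in those labelled with the mutant, and at no more than 0.759 FPKM in the other 10 libraries. FPKM per gene does not separate the mutant from the normal sequence. The 2 groups thus differed in the level of Kdm4d message as well as in its form, and the 2 Kdm4d libraries differed from each other in that level too. The part of that level in the results below was not tested.

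The licensing factors and several helicase genes were higher with Kdm4d than with its mutant. Compared with the mutant, 20 of the 50 genes were higher and 7 lower, where 21.4% of all tested genes were higher and 22.5% lower. The members' median was 0.38, and that of all genes -0.095. Of the 20 higher genes 16 kept their call under quantile normalization and equal sums of FPKM, as did all 7 of the lower ones. A fit of these 4 libraries alone called 10 higher and 1 lower, and group weights 11 and 0, without the shares of all tested genes to set beside them. Gmnn had 644 and 774 FPKM with Kdm4d and 329 and 249 FPKM with the mutant (1.30 ± 0.17 (SE), adjusted p = 0.000138). Cdt1 had 21.3 and 24.9 FPKM against 8.81 and 8.4 FPKM (1.32 ± 0.17 (SE), adjusted p = 0.000158), and Cdc6 had 15.6 and 21.8 FPKM against 8.03 and 8.16 FPKM (1.10 ± 0.18 (SE), adjusted p = 0.000552). The lower Kdm4d value was well above the higher mutant value in all 3.

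Among the helicase factors Gins2 had 70.3 and 67.3 FPKM with Kdm4d and 11.7 and 11.6 FPKM with the mutant (2.47 ± 0.12 (SE), adjusted p = 2.26e-06), the largest difference of the 50 genes. Its mutant values lay within the range of plain SCNT embryos and its Kdm4d values exceeded those of IVF embryos. Gins3 had 7.44 and 22.3 FPKM against 2.68 and 3.42 FPKM (1.80 ± 0.36 (SE), adjusted p = 0.00216), with the widest gap between Kdm4d libraries of any member. Cdc45 had 97.7 and 134 FPKM against 47.5 and 49.2 FPKM (1.22 ± 0.16 (SE), adjusted p = 0.000178), and Orc1 had 26.8 and 27.4 FPKM against 11.8 and 10.1 FPKM (1.24 ± 0.17 (SE), adjusted p = 0.000222). Mcm4 had 28.2 and 26.6 FPKM against 14.3 and 15.1 FPKM (0.85 ± 0.14 (SE), adjusted p = 0.000498), and Mcm3 had 22.1 and 24.4 FPKM against 12.6 and 12.2 FPKM (0.85 ± 0.14 (SE), adjusted p = 0.00062); Mcm2, Mcm5, Mcm6 and Mcm7 were not called. Rrm2 had 273 and 318 FPKM against 132 and 137 FPKM (1.13 ± 0.17 (SE), adjusted p = 0.000335). Pcna, the sliding clamp itself, had 27.5 and 31 FPKM against 20.1 and 20.6 FPKM (0.50 ± 0.14 (SE), adjusted p = 0.0136), which lost its call under both scalings and without Kdm4d 2-cell replicate 2 (adjusted p = 0.0612), and 31.8% of its stretches are shared with the pseudogene Pcna-ps2.

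Of the 7 genes that were lower with Kdm4d than with the mutant, 5 were among the 12 that were higher in SCNT than in IVF embryos (Lig1, Mcm8, Pola1, Pold1 and Rfc4). Mcm8, a helicase subunit of repair rather than of the ring, had 1.84 and 3.35 FPKM against 6.83 and 7.49 FPKM (-1.21 ± 0.23 (SE), adjusted p = 0.00135). Lig1 had 3.01 and 2.18 FPKM against 4.39 and 8.32 FPKM (-0.99 ± 0.24 (SE), adjusted p = 0.00692) and lost its call without Kdm4d 2-cell replicate 2 (adjusted p = 0.0519). Rfc4 had 11.7 and 18.7 FPKM against 35.5 and 23.4 FPKM (-0.92 ± 0.23 (SE), adjusted p = 0.00842), and lost its call without Kdm4d 2-cell replicate 1 (0.0606) or mutant Kdm4d 2-cell replicate 1 (0.0696). Dbf4 had 226 and 228 FPKM against 392 and 291 FPKM (-0.57 ± 0.15 (SE), adjusted p = 0.0113), its mutant value of 392 FPKM being the highest of the 14 libraries. Pola1 had 7.57 and 9.96 FPKM against 18.9 and 10.3 FPKM (-0.63 ± 0.23 (SE), adjusted p = 0.0452), a call that rested on 1 library of each group, since it was lost without Kdm4d 2-cell replicate 1 (0.198) or mutant Kdm4d 2-cell replicate 1 (0.39).

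No library enters both the comparison of Kdm4d with its mutant and that of SCNT with IVF 2-cell embryos, so the 2 can be set side by side. Of the 12 members that were lower in SCNT, 10 were higher with Kdm4d (83.3% of the first list and 50.0% of the second): Cdc45, Cdc6, Cdt1, Gins2, Gmnn, Mcm4, Orc1, Pcna, Rpa2 and Rrm2. For all tested genes these shares were 74.0% and 57.4%. Of the 12 that were higher in SCNT, 5 were lower with Kdm4d (41.7% and 71.4%, for all genes 47.2% and 63.5%). Pold2 was called higher in both. Across the 50 genes the differences had a Spearman's rho of -0.72, and across all 13452 genes -0.63, a description over genes that are not independent replicates and share the same libraries. The members' shares lay near those of all tested genes.

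**Figure D5:**
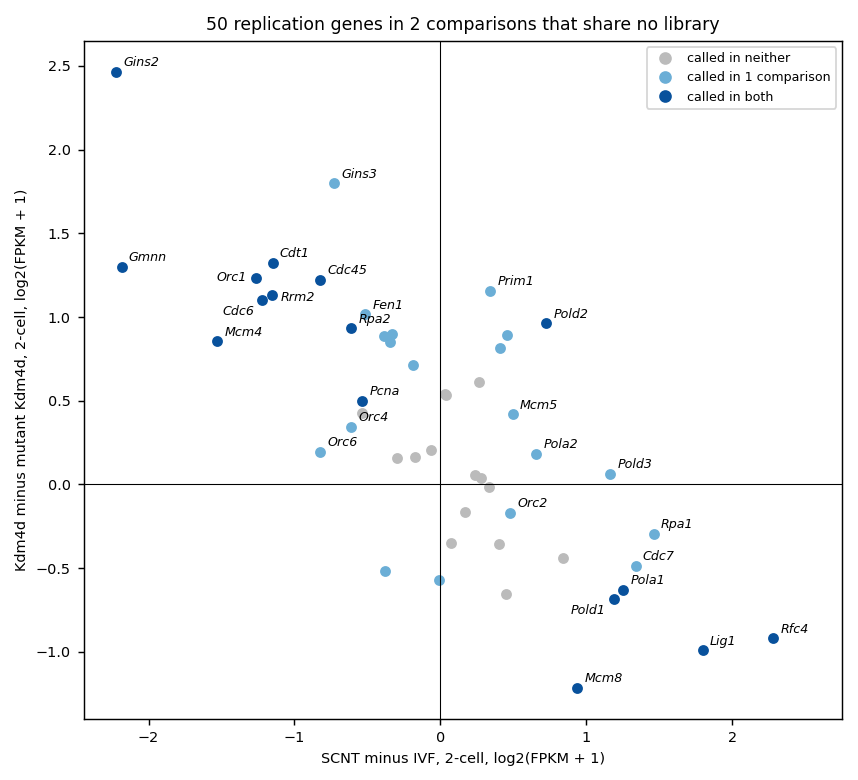
Difference between SCNT and IVF 2-cell embryos (x) and between Kdm4d and mutant Kdm4d SCNT 2-cell embryos (y) on the log2(FPKM + 1) scale, 1 point per gene, coloured by the number of the 2 comparisons in which it was called. Gins2, Gmnn, Mcm4, Orc1, Cdc6, Rrm2, Cdt1 and Cdc45 lie at the upper left, and Rfc4, Lig1, Mcm8, Pold1 and Pola1 at the lower right.

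Against plain SCNT 2-cell embryos, in which neither form of Kdm4d was overexpressed, 19 members were higher and 6 lower with Kdm4d, where 21.0% of all genes were higher and 18.5% lower. That split depended on the scale, with 13 and 13 under quantile normalization and 7 and 18 under equal sums of FPKM. The members' median exceeded that of all genes by 0.33 without scaling and by 0.14 under equal sums, and differed from it by -0.03 with quantile normalization. Rrm2 was the most changed, with 273 and 318 FPKM against 49.2 and 46.7 FPKM (2.59 ± 0.17 (SE), adjusted p = 2.98e-06). Gins2, Gmnn, Cdt1, Cdc6 and Mcm4 were higher by 2.43, 2.07, 1.90, 1.52 and 1.34, and kept their calls under both scalings. The call of Mcm6 (0.63 ± 0.22) did not, turning to -0.05 under equal sums, and was lost without either SCNT 2-cell library or Kdm4d 2-cell replicate 2. Pcna (0.61 ± 0.14) was lost under both scalings and turned to -0.06 under equal sums. Pola1 was lower, with 7.57 and 9.96 FPKM against 36.9 and 30.2 FPKM (-1.83 ± 0.23 (SE), adjusted p = 0.000119), as were Lig1 (-1.26 ± 0.24) and Mcm8 (-1.21 ± 0.23).

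With the mutant, 8 members were higher and 5 lower than in plain SCNT embryos, where 11.3% and 6.42% of all genes were. The split was 5 and 7 under quantile normalization and 1 and 18 under equal sums of FPKM. Without SCNT 2-cell replicate 1 it was 3 and 1. Without SCNT 2-cell replicate 2, 3 members were higher, without replicate 1 of the mutant 4 were, and without replicate 2 of the mutant 10 were lower. A fit of these 4 libraries alone called 0 and 0. Rrm2 was the member that kept a higher call under both scalings and without each library in turn, with 132 and 137 FPKM against 49.2 and 46.7 FPKM (1.46 ± 0.17 (SE), adjusted p = 0.000934). Its order over the 2-cell groups was therefore SCNT, IVF at 108 and 108 FPKM, mutant Kdm4d and Kdm4d, with no overlap between neighbours, although mutant Kdm4d and IVF embryos were not tested against each other. Gmnn had 329 and 249 FPKM against 171 and 164 FPKM (0.77 ± 0.17 (SE), adjusted p = 0.0105), a call lost under both scalings and without either SCNT 2-cell library (adjusted p = 0.0617 and 0.0574). Among the lower genes Mcm3 had 12.6 and 12.2 FPKM against 22.9 and 19.9 FPKM (-0.73 ± 0.14 (SE), adjusted p = 0.0061), and without SCNT 2-cell replicate 1 its adjusted p was 0.0617.

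Against IVF 2-cell embryos 12 members were higher with Kdm4d and 0 lower, where 16.6% and 3.7% of all genes were. At an unadjusted p under 0.05 limma had 16 higher and 2 lower, where 27.0% of all genes were higher and 6.77% lower. The counts were 4 higher and 5 lower under quantile normalization and 5 and 6 under equal sums of FPKM. Without IVF 2-cell replicate 2, 4 were higher, and without IVF 2-cell replicate 1 or Kdm4d 2-cell replicate 2, 7. Rrm2 had 273 and 318 FPKM with Kdm4d against 108 and 108 FPKM in IVF embryos (1.44 ± 0.17 (SE), adjusted p = 0.000259). Rfc4 had 11.7 and 18.7 FPKM against 4.55 and 4.56 FPKM (1.51 ± 0.23 (SE), adjusted p = 0.00137), and thus lay between the IVF and the plain SCNT values. Pold3 had 42.3 and 34.9 FPKM against 20.6 and 20.9 FPKM (0.86 ± 0.13 (SE), adjusted p = 0.00128). These 3, with Pola2 (1.50 ± 0.18, below the level set for naming and chosen after its values were seen), kept their calls under both scalings. Gmnn had 644 and 774 FPKM against 752 and 781 FPKM (-0.12 ± 0.17 (SE), adjusted p = 0.677), and Gins2 70.3 and 67.3 FPKM against 59.9 and 58.6 FPKM (0.21 ± 0.12 (SE), adjusted p = 0.259).

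The marker sums moved with Kdm4d too. Markers of the 2-cell stage summed to between 1517 and 2300 FPKM with Kdm4d and between 273 and 571 FPKM with the mutant, with 2 of the 10 at 0 in both groups. Markers of proliferating cells summed to between 626 and 803 FPKM and between 420 and 445 FPKM. Among them Birc5 overlapped between the groups. Oocyte markers summed to between 2395 and 3508 FPKM with Kdm4d and between 2901 and 5942 FPKM with the mutant. Single oocyte markers again went both ways. Bmp15 was lower with Kdm4d (259 and 163 FPKM against 680 and 498 FPKM) and Zp3 higher (71.4 and 93.4 FPKM against 29.4 and 34.1 FPKM). Cumulus markers, 3 of 20 at 0 in each group, summed to between 151 and 222 FPKM and between 88.2 and 104 FPKM. Gja1 was the largest part, at 95.0 and 158 FPKM with Kdm4d and 46.9 and 43.2 FPKM with the mutant. Spp1 went the other way, with 10.2 and 4.35 FPKM against 36.8 and 15.7 FPKM. The part of all these marker sums in the members' differences was not tested.

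A further 45 genes that work beside this machinery, in checkpoint control, nucleotide synthesis, chromatin assembly, E2F regulation and the cyclins of S phase, were counted as a list, all of which were tested. From the 1-cell to the 2-cell stage 18 rose and 14 fell in IVF embryos, where 30.4% and 37.2% of all tested genes did. In SCNT embryos 15 rose and 20 fell, where 35.5% and 31.5% of all tested genes did. Under equal sums of FPKM these were 23 and 9, and 22 and 6. Ccne1, the cyclin E that drives entry into S phase, had the largest rise of the list, from 1.38 and 1.43 FPKM to 116 and 91.5 FPKM in IVF (5.43 ± 0.25 (SE), adjusted p = 5.19e-09) and from 3.1 and 1.69 FPKM to 65.5 and 63.1 FPKM in SCNT embryos (4.30 ± 0.25 (SE), adjusted p = 7.09e-08). Slbp, which binds the ends of histone messages, fell from 897 and 1162 FPKM to 46.5 and 41.5 FPKM in IVF embryos (-4.51 ± 0.17 (SE), adjusted p = 1.36e-09) and from 1119 and 1145 FPKM to 22.8 and 28.3 FPKM in SCNT embryos (-5.42 ± 0.17 (SE), adjusted p = 2.83e-09).

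Between SCNT and IVF 2-cell embryos 17 of the 45 were lower and 13 higher (11 and 16 under equal sums of FPKM), with a median of -0.11. Of all tested genes 16.6% were lower and 30.3% higher, with a median of 0.225. Dtl, the receptor of the ligase that destroys Cdt1 during S phase, had 40.6 and 38 FPKM in IVF and 11.1 and 14.1 FPKM in SCNT embryos (-1.57 ± 0.18 (SE), adjusted p = 3.52e-05). Fbxo5, an inhibitor of the complex that degrades geminin, had 49.3 and 47.6 FPKM against 17.2 and 19.6 FPKM (-1.35 ± 0.24 (SE), adjusted p = 0.000844). Dut, which keeps uracil out of DNA, had 20.1 and 18.6 FPKM against 6.48 and 6.33 FPKM (-1.46 ± 0.31 (SE), adjusted p = 0.00267). Chaf1b, a subunit of the chromatin assembly factor behind the fork, was higher in SCNT, at 17.1 and 15.4 FPKM against 6.81 and 4.64 FPKM (1.37 ± 0.20 (SE), adjusted p = 0.000198), as were Cdc25a (1.30 ± 0.17) and Timeless (1.28 ± 0.17). With Kdm4d against its mutant 15 were higher and 9 lower (10 and 13 under equal sums of FPKM), where 21.4% and 22.5% of all tested genes were. Nasp, a chaperone of histone H3, had 183 and 236 FPKM against 62.1 and 84 FPKM (1.51 ± 0.17 (SE), adjusted p = 7.92e-05), and Cdk2, the kinase partner of cyclin E, 29.2 and 26.7 FPKM against 8.72 and 10.7 FPKM (1.44 ± 0.18 (SE), adjusted p = 0.000143). Tfdp1, a dimer partner of E2F factors, was lower with Kdm4d, at 14.9 and 10.2 FPKM against 24 and 22.1 FPKM (-0.85 ± 0.17 (SE), adjusted p = 0.00197).

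E2F cores were present among members of each direction. Of the genes with a promoter window, a core stood in 6 of the 9 that were lower in SCNT than in IVF 2-cell embryos, in 8 of the 12 that were higher and in 14 of the 21 that were not called. For Kdm4d against its mutant it stood in 9 of the 13 higher, 6 of the 7 lower and 13 of the 22 genes not called. Among the sequences printed above, the core of Rrm2 began 235 bases before the start of transcription, that of Cdc6 138, that of Rpa2 37 and that of Orc1 27 bases before it. Mcm6 held 5 cores in its window and Pola1 4. Each count gives matches of letters in a window of 300 bases, and no enrichment was tested.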

How the data were processed

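RNA of 14 libraries (7 groups of 2) was measured with SMARTer Ultra Low cDNA synthesis, NEBNext Ultra library preparation and single-end reads of 50 bases, per the labels' protocols. Novoalign and Cufflinks 2.0.2 were used on build mm9, per the submitters' processing notes; the sources used here do not give the annotation, the strand or the treatment of reads with several matching places. The table deposited by the authors holds FPKM for all libraries. The members and gene lists were chosen with earlier results of these data known. Rows of short RNAs (806) were left out and rows sharing a symbol summed. Values were taken as log2(FPKM + 1) without further scaling; genes that reached 1 FPKM in 2 or more libraries were fitted with limma 3.58.1 in R 4.3.3 (all 7 group means, intensity trend, 7 residual degrees of freedom) and a gene was called at an adjusted p of at most 0.05 (Benjamini-Hochberg, each comparison separately). The script was tested on simulated data. Named with values were Gmnn, Cdt1, Cdc6, Mcm2 to Mcm7, Pcna and Rrm2, and per comparison up to 6 called members in each direction with the largest differences, a group mean of at least 5 FPKM and no overlap between libraries; of the related list, up to 3 in each direction. Members named beside these were chosen after their values were seen. Alternatives were a pseudocount of 0.1, no filter, quantile normalization, group weights, only the groups compared, a replicate block, leaving out each library, and, chosen after seeing the data, scaling to equal sums of FPKM. Total counts are not in the table, so depth is known only relative to the deepest library.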

Additional observations from a re-analysis of the deposited data

Results flagged for a closer look

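For 18 members the change from the 1-cell to the 2-cell stage differed between SCNT and IVF embryos by limma's test of that difference. The more negative change in SCNT was that of Gins2 (-2.63 on the log2 scale), Gmnn (-2.02), Cdt1 (-1.54), Rrm2 (-1.43), Fen1 (-1.35), Mcm4 (-1.22), Cdc6 (-1.21), Cdc45 (-1.03), Orc1 (-1.02) and Gins4 (-0.92). The more positive change in SCNT was that of Rfc4 (2.79), Lig1 (1.76), Pola1 (1.36), Orc5 (1.28), Mcm8 (1.14), Pold1 (1.09), Pold3 (0.79) and Mcm5 (0.67). Between SCNT and IVF embryos Orc5, Fen1 and Gins4 were called at neither stage. Orc5, Mcm5, Mcm8 and Gins4 lost their call without at least 5 of the 8 libraries, 1 at a time; Mcm5 did so without each of them (adjusted p from 0.0723 to 0.137), Mcm8 without IVF 1-cell replicate 2, SCNT 1-cell replicate 2, IVF 2-cell replicate 1 and either SCNT 2-cell library (0.0504 to 0.0884), and Orc5 without every library but SCNT 2-cell replicate 1 (0.055 to 0.111). Gins4 did so without every library but IVF 1-cell replicate 2 and IVF 2-cell replicate 2 (adjusted p from 0.0702 to 0.123). The calls of Gins4, Mcm5 and Mcm8 were also lost under quantile normalization, that of Gins4 under equal sums of FPKM, those of Gins4 and Orc5 without a filter, and that of Mcm5 with a pseudocount of 0.1 or the replicate block. The other 14 kept theirs under all of these. Among all 13452 tested genes, 16.5% had a more positive and 12.6% a more negative change in SCNT by the same test.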

How the results depend on the processing

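Counts of members called are given as higher, then lower. Scaling to equal sums of FPKM, an alternative chosen after seeing the data, moved the median difference of all tested genes by as much as 0.48 (from 0.06 to 0.54 for the SCNT stage change) and gave 12 falls in the IVF stage change (20 without it), 25 and 10 in the SCNT stage change (13 and 20), 22 higher in SCNT against IVF 2-cell embryos (12), 7 and 18 for Kdm4d against SCNT (19 and 6), 1 and 18 for the mutant against SCNT (8 and 5), and 5 and 6 for Kdm4d against IVF (12 and 0). Quantile normalization gave 13 lower for Kdm4d against SCNT, 5 higher for the mutant against SCNT, and 4 and 5 for Kdm4d against IVF. Relative to the median of all genes, the members' median for Kdm4d against its mutant was 0.48 higher without scaling, 0.27 with quantile normalization and 0.39 under equal sums. Group weights gave 10 and 8 for SCNT against IVF at the 1-cell stage (0 and 0), 3 and 1 for the mutant against SCNT, and 11 and 0 for Kdm4d against its mutant (20 and 7). Fits of only the groups compared gave 9 and 11 at the 1-cell stage, 0 and 0 for the mutant against SCNT, 10 and 1 for Kdm4d against its mutant, and 7 higher for Kdm4d against IVF. A pseudocount of 0.1 gave 1 higher at the 1-cell stage, and so did testing without a filter. Shares of all tested genes called under these alternatives are not given here, so the counts describe only the members. The causes were not tested.

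Leaving out 1 library at a time, with the lone library of a group assumed to vary like the other groups, gave 15 to 18 higher and 16 to 17 lower in the IVF stage change, 9 to 13 and 18 to 20 in the SCNT stage change, 5 to 7 and 9 to 10 in their difference, 0 and 0 at the 1-cell stage, 7 to 9 and 10 to 12 for SCNT against IVF at the 2-cell stage, 13 to 22 and 4 to 6 for Kdm4d against SCNT, 3 to 10 and 1 to 10 for the mutant against SCNT, 16 to 22 and 6 to 9 for Kdm4d against its mutant, 4 to 15 and 0 for Kdm4d against IVF, and 3 to 5 and 39 for donor cells. Of 137 single-gene results, 3 changed direction, all under equal sums of FPKM: Rrm2 in the SCNT stage change (0.097), and Mcm6 (-0.049) and Pcna (-0.059) for Kdm4d against SCNT. With the replicate number as a block the counts were the same except 18 higher for Kdm4d against SCNT, 7 for the mutant against SCNT and 10 for Kdm4d against IVF. Replicate numbers were not taken to pair the libraries, since same-numbered libraries deviated together (correlation over 0.1) in 1 of 21 pairs of groups. That pair was Kdm4d with mutant Kdm4d 2-cell embryos (0.191), which are compared with each other above. The SCNT 2-cell libraries had -0.154 with Kdm4d and -0.128 with the mutant. The Kdm4d and mutant libraries had 0.415 to 0.507 of the deepest library's depth, the least of the 14, and the effect of depth on the calls was not tested.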
